A study of Mus musculus with 18 samples.

Results

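The plasma cell genes Jchain, Sdc1, Prdm1, Mzb1, Derl3 and Tnfrsf17 and 2 probesets for which the platform annotation lists no gene were followed mouse by mouse in bone marrow. Each gene was represented by every probeset annotated to its symbol alone, which gave 9 probesets of 6 genes, and with the 2 probesets without a listed symbol 11 probesets of 45101 on the array. All 11 passed a filter on dim probesets. The 2 probesets without a symbol were chosen from these arrays: they are the probesets called between DRAI+ and DRAI- mice, so their values are given as a description, with no test. No gene name is given to them here. They are called by the ends of their identifiers, which are given whole in the panel titles of the plot of values by mouse, as the a_at probeset and the s_at probeset. On these arrays the ending a_at marks probes that match alternative transcripts of a gene, and s_at marks probes shared by several transcripts.

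Total RNA of flash-frozen marrow from 18 C57Bl6 mice was hybridised to Affymetrix arrays with a separate array for each mouse. The groups were 6 CCAT2-GT mice, labelled DRAI+, 4 CCAT2-G and 4 CCAT2-T mice, together the 8 DRAI- mice, and 4 wild-type (WT) mice. CCAT2 is a long non-coding RNA, and the transgenic mice were engineered to overexpress its G or T form throughout the body. The labels do not spell out DRAI or state how the CCAT2-GT mice were made, and they give no promoter, founder line, age or sex. All levels are the authors' RMA values on the log2 scale, so a difference of 1 is a 2-fold difference in signal, and levels of different probesets are not compared with each other.

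Plasma cells are the antibody-secreting end stage of the B-cell lineage, and long-lived ones settle in bone marrow. The transcription factor Blimp-1, encoded by Prdm1, shuts down the B-cell programme, and XBP1, the transcription factor of the unfolded protein response, enlarges the secretory machinery. Jchain links the chains of secreted IgA and IgM, Mzb1 is a chaperone for antibody assembly in the endoplasmic reticulum, and Derl3 helps to remove misfolded proteins from it. On the surface, Sdc1 (syndecan-1, CD138) is the usual plasma cell marker and Tnfrsf17 (BCMA) is a survival receptor.

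Array medians lay between 4.27 and 4.40. On 5 arrays (CCAT2-G replicate 1, CCAT2-T replicates 1 and 2, WT replicates 1 and 2) the interquartile range was under 3.1, and none of the 5 was a DRAI+ array. A stroma, bone and endothelium score was highest in CCAT2-GT replicates 4 and 6 and WT replicate 4. Xist, the RNA that coats the silent X chromosome of females, exceeded 10.7 in CCAT2-GT replicates 2, 3 and 5 and CCAT2-T replicate 3 and at most 4.05 in the others. In bulk marrow, fewer cells of a type and less RNA per cell cannot be told apart.

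The a_at probeset was at 11.00, 12.86, 10.22, 10.88, 10.39 and 10.88 in CCAT2-GT replicates 1 to 6. It was at 8.46, 9.17, 8.90 and 8.39 in CCAT2-G replicates 1 to 4, at 7.80, 8.26, 9.10 and 9.27 in CCAT2-T replicates 1 to 4 and at 8.94, 9.13, 9.63 and 9.27 in WT replicates 1 to 4. Every DRAI+ mouse lay above every other mouse, with a gap of 0.59 between the lowest DRAI+ mouse and the highest of the other 12, WT replicate 3.

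The s_at probeset showed the same separation. It was at 10.14, 12.34, 9.49, 10.21, 9.76 and 10.22 in CCAT2-GT replicates 1 to 6. It was at 7.60, 8.24, 8.39 and 7.39 in CCAT2-G replicates 1 to 4, at 6.62, 7.50, 6.33 and 8.30 in CCAT2-T replicates 1 to 4 and at 8.13, 8.37, 8.52 and 8.51 in WT replicates 1 to 4. The gap between the lowest DRAI+ mouse and the highest of the other 12 was 0.97. Of all 31571 probesets tested, these 2 (0.00633%) had the DRAI+ mice wholly above the other 12, and 1 had them wholly below. In both probesets CCAT2-GT replicate 2 was the highest of the 18 mice and stood more than 1.8 above the next.

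DRAI+ minus DRAI-, the difference was 2.37 (SE 0.32) for the a_at probeset and 2.81 (SE 0.38) for the s_at probeset. Of the 31571 probesets that passed the filter, these were the 4th and the 1st by size. DRAI+ minus WT, the differences were 1.79 (SE 0.38) and 1.98 (SE 0.45). DRAI- minus WT, both were below 0, at -0.57 (SE 0.36) and -0.83 (SE 0.43), and CCAT2-G minus CCAT2-T they were 0.13 (SE 0.43) and 0.71 (SE 0.48). These are the values that chose the 2 probesets or share samples with that contrast, and nothing is read from them. They were called at an adjusted p under 0.05 in DRAI+ minus DRAI- as the only such probesets of the table, 0.00633% of those tested. Next by p beyond the threshold came Crabp2, which binds retinoic acid inside cells, at -0.48 (SE 0.10), and the co-chaperone Dnajc7 at -1.02 (SE 0.21).

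Without the 5 narrow arrays the DRAI+ minus DRAI- differences were 2.07 for the a_at probeset and 2.63 for the s_at probeset. Without the 3 stroma-rich arrays they were 2.45 and 2.89, and without the 4 Xist-high arrays 2.31 and 2.47.

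**Figure D1:**
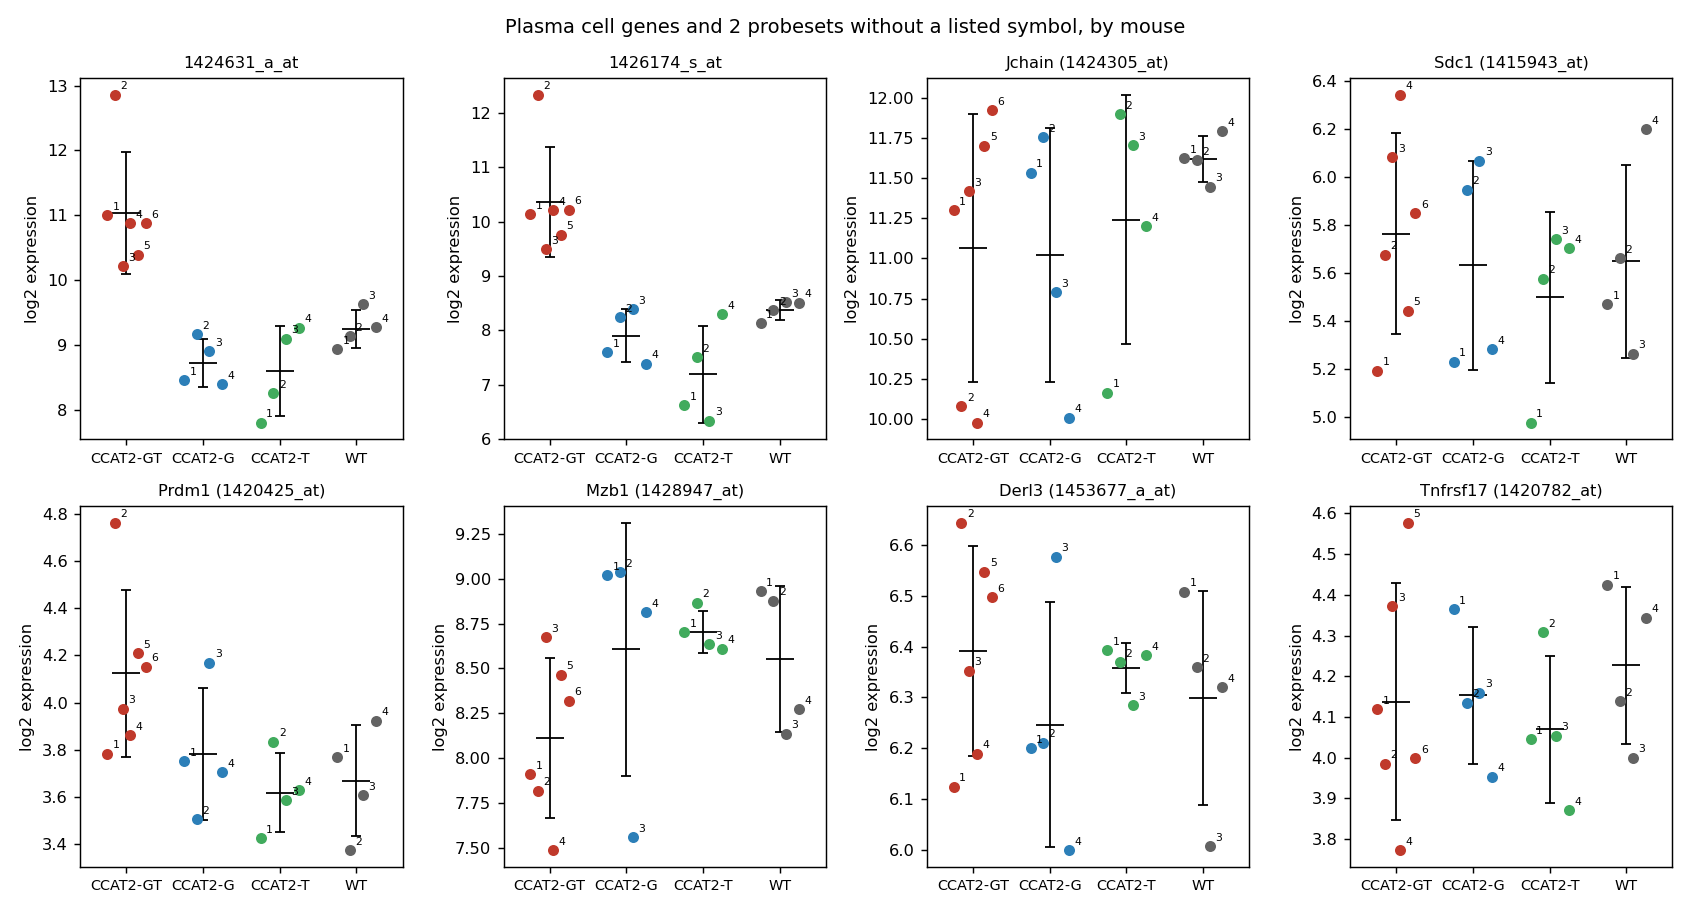
Log2 expression (vertical axes) of both probesets without a listed symbol and of the brightest probeset of each of the 6 plasma cell genes, by group. Each point is a mouse with its replicate number, the bar is the group mean and the whiskers are the SD. The 6 CCAT2-GT mice lie above the other 12 only in the panels of the a_at probeset and the s_at probeset.

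The 2 probesets ran closely together within the 6 DRAI+ mice, where their Pearson correlation was 0.996 (0.96 over 5 mice without CCAT2-GT replicate 2), and less so within the other 12 mice, where it was 0.64. CCAT2-T replicate 3 stood apart: its s_at value of 6.33 was the lowest of the 18, while its a_at value of 9.10 lay above those of 6 of the other 11 mice that were not DRAI+. These correlations, like all that follow, describe arrays that share 1 normalization.

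In none of the 9 probesets of the plasma cell genes did the DRAI+ mice lie wholly above the others, a separation that only 2 of all 31571 had. By limma with Benjamini-Hochberg adjustment over all 31571 probesets, 0 of these 9 probesets passed in any of the 4 comparisons. The smallest adjusted p was 1.00 for DRAI+ minus WT and for DRAI- minus WT, 0.446 for DRAI+ minus DRAI- and 0.866 for CCAT2-G minus CCAT2-T. The share of all probesets called was 0% for DRAI+ minus WT, 0% for DRAI- minus WT and 0% for CCAT2-G minus CCAT2-T. For DRAI+ minus DRAI- it was 0.00633%, which is the 2 probesets without a symbol. As those were chosen for being the only ones called there, 0 of 9 in that comparison was fixed by the choice. At an unadjusted p under 0.05 the counts were 1 of 9 in DRAI+ minus WT, where 2.42% of all probesets passed, and 0 of 9 in DRAI- minus WT, where 1.49% did. They were 2 of 9 in DRAI+ minus DRAI-, where 9.8% of all passed, and 0 of 9 in CCAT2-G minus CCAT2-T, where 6.93% did. The median difference of the 9 probesets was 0.09 for DRAI+ minus WT and 0.09 for DRAI+ minus DRAI-, against medians of 0.000881 and -0.00253 over all tested. As the 4 comparisons share samples, their counts are not independent.

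**Figure D2:**
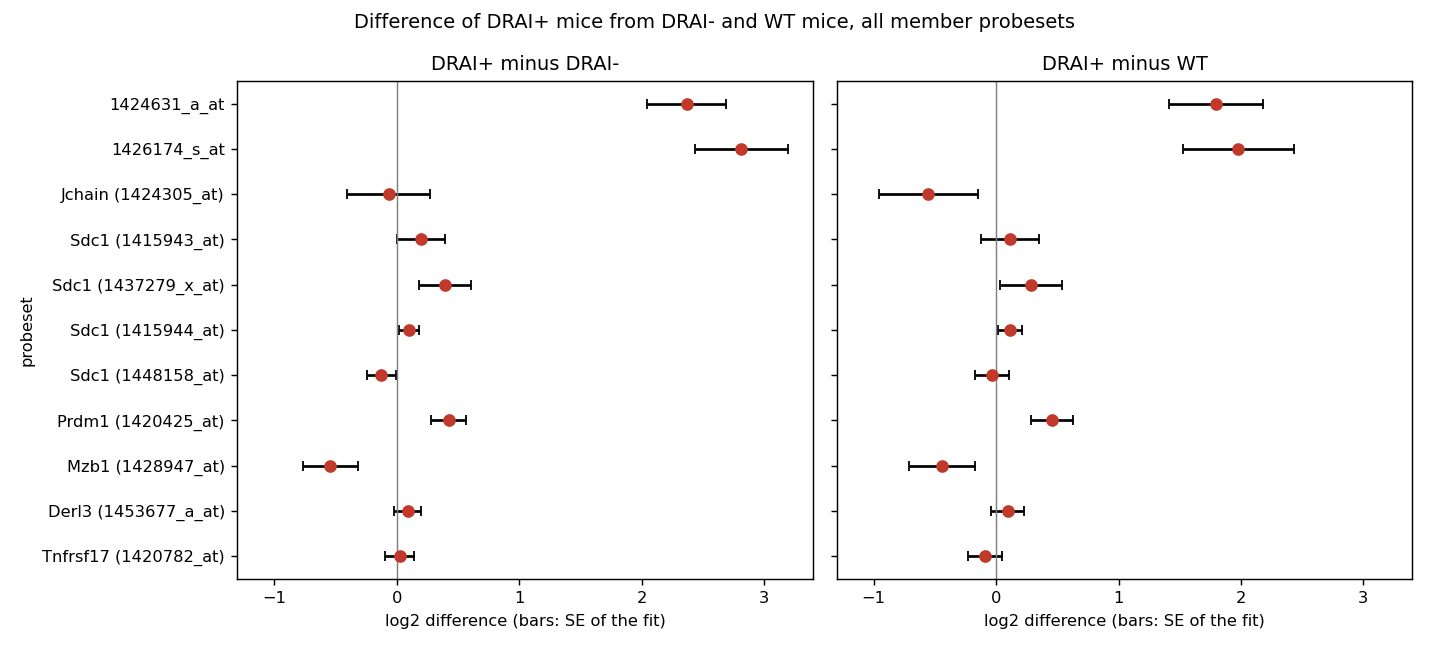
Log2 differences (horizontal axes) of DRAI+ mice from DRAI- mice on the left and from WT mice on the right for the 11 probesets, with bars for the SE of the fit. Both probesets without a symbol lie at 1.79 to 2.81, and the 9 probesets of the plasma cell genes between -0.55 and 0.46.

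Prdm1 was at 3.78, 4.76, 3.97, 3.86, 4.21 and 4.15 in CCAT2-GT replicates 1 to 6, at 3.75, 3.50, 4.17 and 3.70 in CCAT2-G replicates 1 to 4, at 3.43, 3.83, 3.59 and 3.63 in CCAT2-T replicates 1 to 4 and at 3.77, 3.37, 3.61 and 3.92 in WT replicates 1 to 4. The groups overlap, and CCAT2-GT replicate 2, the highest mouse of both probesets, was also the highest in Prdm1. DRAI+ minus DRAI- the difference was 0.42 (SE 0.14, limma adjusted p = 0.446). DRAI+ minus WT it was 0.46 (SE 0.17, adjusted p = 1.00), and with array weights, which let noisier arrays count less, it was 0.58 with an adjusted p of 0.0449. Without the 4 Xist-high arrays the differences were 0.22 and 0.26. The level of Prdm1 lay below the array median in every mouse but CCAT2-GT replicate 2, where signal over background is small.

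Jchain was at 11.30, 10.08, 11.42, 9.98, 11.70 and 11.92 in CCAT2-GT replicates 1 to 6. It was at 11.54, 11.75, 10.79 and 10.01 in CCAT2-G replicates 1 to 4, at 10.16, 11.90, 11.71 and 11.20 in CCAT2-T replicates 1 to 4 and at 11.63, 11.61, 11.45 and 11.79 in WT replicates 1 to 4. WT mice were close together, at 11.62 ± 0.14 (SD, n = 4), and every transgenic group had both high and low mice, for example 11.07 ± 0.83 (SD, n = 6) in DRAI+ mice. The low mice were CCAT2-GT replicates 2 and 4, CCAT2-G replicate 4 and CCAT2-T replicate 1, all at or below 10.16. DRAI+ minus DRAI- the difference was -0.06 (SE 0.34, limma adjusted p = 0.954), and DRAI+ minus WT it was -0.55 (SE 0.40, adjusted p = 1.00).

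Mzb1 was at 7.91, 7.82, 8.67, 7.49, 8.46 and 8.32 in CCAT2-GT replicates 1 to 6. It was at 9.02, 9.04, 7.56 and 8.81 in CCAT2-G replicates 1 to 4, at 8.70, 8.87, 8.64 and 8.61 in CCAT2-T replicates 1 to 4 and at 8.93, 8.88, 8.14 and 8.27 in WT replicates 1 to 4. Most DRAI- mice were above most DRAI+ mice, with CCAT2-G replicate 3 an exception. DRAI+ minus DRAI- the difference was -0.54 (SE 0.22, limma adjusted p = 0.472), opposite in sign to that of Prdm1. DRAI+ minus WT it was -0.44 (SE 0.27, adjusted p = 1.00), and -0.09 without the 5 narrow arrays.

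The other 3 genes overlapped between DRAI+, DRAI- and WT mice. Derl3 ranged from 6.12 to 6.64 in DRAI+ mice, from 6.00 to 6.58 in DRAI- mice and from 6.01 to 6.51 in WT mice, and differed by 0.09 (SE 0.11) between DRAI+ and DRAI- mice. Tnfrsf17 ranged from 3.77 to 4.58 in DRAI+ mice, from 3.87 to 4.37 in DRAI- mice and from 4.00 to 4.42 in WT mice, with a difference of 0.03 (SE 0.12) between DRAI+ and DRAI- mice. The brightest Sdc1 probeset ranged from 5.19 to 6.34 in DRAI+ mice, from 4.98 to 6.07 in DRAI- mice and from 5.27 to 6.20 in WT mice, with a difference of 0.20 (SE 0.20) between DRAI+ and DRAI- mice. That of Sdc1 was 0.02 without the 5 narrow arrays and 0.03 without the 3 stroma-rich arrays. Those of Derl3 and Tnfrsf17 were -0.03 and -0.16 without the 4 Xist-high arrays.

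The 4 Sdc1 probesets did not all run together. The 2 brightest had a correlation of 0.86 over the 18 mice, while the dimmest correlated at -0.43 with the brightest. The dimmest lay between 3.34 and 4.09, below the array medians. Their differences between DRAI+ and DRAI- mice were 0.20 (SE 0.20), 0.40 (SE 0.21), 0.10 (SE 0.08) and -0.13 (SE 0.12) from the brightest to the dimmest.

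A plasma score, the mean log2 level of the brightest probeset of each of the 6 genes, was 6.60 ± 0.24 (SD, n = 6) in DRAI+ mice, 6.57 ± 0.21 (SD, n = 4) in CCAT2-G mice, 6.58 ± 0.22 (SD, n = 4) in CCAT2-T mice and 6.67 ± 0.18 (SD, n = 4) in WT mice. The score differed by 0.02 between DRAI+ and DRAI- mice and by -0.07 between DRAI+ and WT mice, which is less than the SD within any group. In CCAT2-GT replicate 2, the highest mouse of both probesets, the score was 6.49. It was 6.82 in CCAT2-GT replicate 5 and 6.81 in WT replicate 4, the highest 2 of all mice.

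Of its own members, the score ran most with Jchain, at r = 0.84 over 18 mice, and Tnfrsf17, at 0.72. Its r was 0.44 with Mzb1, 0.44 with Derl3, 0.31 with Sdc1 and 0.15 with Prdm1. Over all 18 mice the correlations of the 2 probesets with the score were near 0, and they differed in sign between sets of mice. Over 18 mice Pearson's r was -0.05 (Spearman's rho 0.06) for the a_at probeset and -0.02 (rho 0.06) for the s_at probeset, and without the 2 mice farthest from the median score r was -0.12 and -0.07. Because the DRAI+ mice stand apart in both probesets, the values within groups matter more. Within the 6 DRAI+ mice r was -0.42 and -0.38, and within the other 12 mice it was 0.31 and 0.29. Over the 5 DRAI+ mice without CCAT2-GT replicate 2 it was -0.69 and -0.62. Among the 13 wider arrays r was -0.07 and -0.06, and among the 5 narrow arrays it was 0.64 and 0.75.

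Single genes followed the probesets in different directions. Prdm1 was the member with the highest correlation, at 0.71 with the a_at probeset (rho 0.51) and 0.76 with the s_at probeset (rho 0.67). Within the 6 DRAI+ mice the values were 0.77 and 0.81, within the other 12 mice 0.02 and 0.29, and over 17 mice without CCAT2-GT replicate 2 they were 0.48 and 0.58. Over the 5 DRAI+ mice without that replicate they were -0.46 and -0.26, so the sign within the DRAI+ mice rests on 1 mouse. By correlation Prdm1 took place 68 for the a_at probeset and place 27 for the s_at probeset among 26001 probesets with 1 symbol.

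Jchain correlated at -0.17 (rho -0.03) with the a_at probeset and -0.19 (rho -0.11) with the s_at probeset. Within the 6 DRAI+ mice the values were -0.63 and -0.63, and within the other 12 mice 0.53 and 0.31. Over the 5 DRAI+ mice without CCAT2-GT replicate 2 they were -0.29 and -0.30. Mzb1 correlated at -0.61 with each probeset, at -0.54 and -0.52 within the DRAI+ mice and at -0.33 and -0.32 within the other 12. The remaining genes had values between -0.20 (Tnfrsf17 with the a_at probeset) and 0.33 (Derl3 with the s_at probeset), taking the brightest probeset of each.

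**Figure D3:**
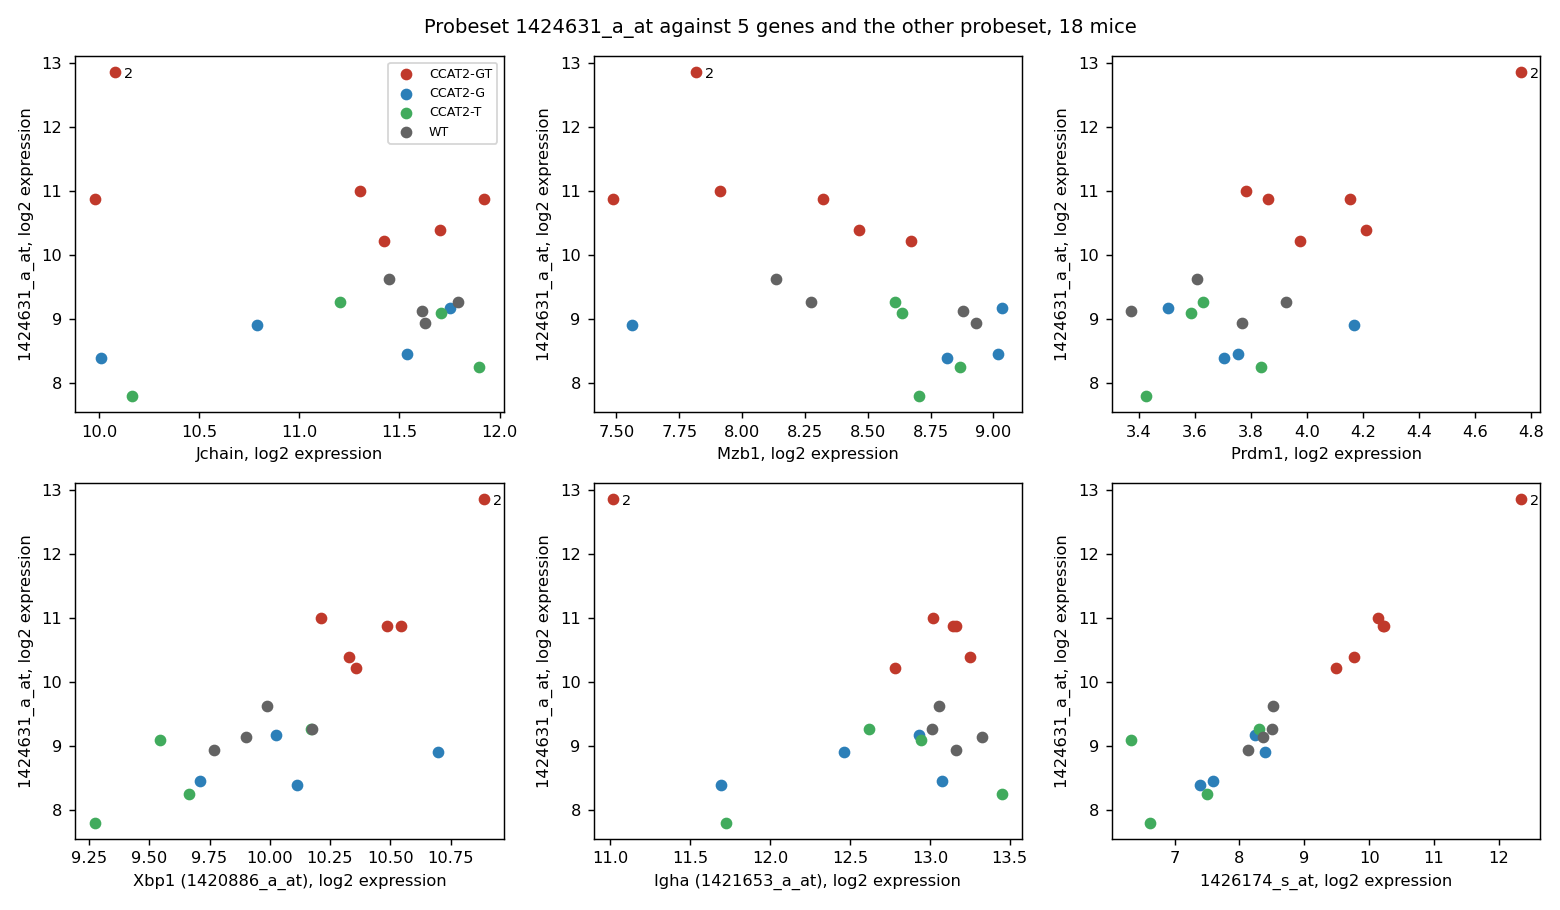
Log2 expression of the a_at probeset (vertical axes) against Jchain, Mzb1, Prdm1, Xbp1, Igha and the other probeset without a symbol (horizontal axes), 1 point per mouse, with CCAT2-GT replicate 2 marked 2. The 6 CCAT2-GT points sit at 10.22 or higher in every panel, while along the Jchain axis they spread from 9.98 to 11.92.

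The 6 genes followed each other little better. Among their 15 pairs r ran from -0.54 (Prdm1 with Mzb1) to 0.60 (Prdm1 with Derl3), with a median of 0.13, and was above 0 in 10. Next to Prdm1 and Derl3 the most alike pair was Jchain and Tnfrsf17 at 0.58. Prdm1 and Derl3 were both highest in CCAT2-GT replicate 2, and without that mouse their r was 0.47. Within the mice that were not DRAI+ it was 0.34, against 0.53 for Jchain and Tnfrsf17. The start-site windows of both pairs, chosen for the highest r over all mice, are printed here from RefSeq (GRCm38.p6, 250 bases before to 50 after the start, 5′ to 3′ on the gene's strand). Capitals mark CCACG, the part of the endoplasmic reticulum stress element that XBP1 and ATF6 are known to bind, on either strand, and in Derl3 also a whole element of CCAAT and CCACG 9 bases apart.
Prdm1, chr10:44458699-44458998, minus strand: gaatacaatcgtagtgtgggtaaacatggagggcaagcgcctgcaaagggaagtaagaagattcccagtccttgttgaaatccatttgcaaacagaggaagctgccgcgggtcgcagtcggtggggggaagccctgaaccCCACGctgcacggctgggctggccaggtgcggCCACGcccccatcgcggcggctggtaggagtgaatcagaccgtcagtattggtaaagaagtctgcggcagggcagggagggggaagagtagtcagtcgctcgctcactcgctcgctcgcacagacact
Derl3, chr10:75893148-75893447, plus strand: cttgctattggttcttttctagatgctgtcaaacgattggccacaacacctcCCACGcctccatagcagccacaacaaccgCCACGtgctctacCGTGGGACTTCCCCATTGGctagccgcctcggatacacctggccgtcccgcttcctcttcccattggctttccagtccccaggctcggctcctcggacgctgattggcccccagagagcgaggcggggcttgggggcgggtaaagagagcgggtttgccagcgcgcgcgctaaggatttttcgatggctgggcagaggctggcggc
Jchain, chr5:88527848-88528147, minus strand: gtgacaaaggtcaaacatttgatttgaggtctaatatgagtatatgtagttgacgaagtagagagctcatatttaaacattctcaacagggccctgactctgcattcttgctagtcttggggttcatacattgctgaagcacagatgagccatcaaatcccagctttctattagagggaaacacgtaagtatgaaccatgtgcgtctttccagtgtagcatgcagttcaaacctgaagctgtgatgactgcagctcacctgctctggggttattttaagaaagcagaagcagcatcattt
Tnfrsf17, chr16:11313559-11313858, plus strand: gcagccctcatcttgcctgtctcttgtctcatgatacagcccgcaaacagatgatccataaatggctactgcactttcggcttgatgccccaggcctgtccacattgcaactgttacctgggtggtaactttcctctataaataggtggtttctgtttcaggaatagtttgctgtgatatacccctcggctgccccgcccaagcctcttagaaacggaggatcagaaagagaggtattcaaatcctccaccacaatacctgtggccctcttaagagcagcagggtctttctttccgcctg

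CCACG was found 2 times in the Prdm1 window and 3 times in the Derl3 window, on either strand, and 0 times in the windows of Jchain and Tnfrsf17. It is in 32.8% of 32851 windows of the same length. The whole element, CCAAT and CCACG with 9 bases between them, overlaps 1 of the 3 CCACG matches of Derl3 and lies there on the minus strand. It is in 39 of the 32851 windows, or 0.119%. In the Tnfrsf17 window TATAAA was found 1 time, a motif in 13.6% of windows. These are matches of letters and say nothing of binding.

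Among all genes with 1 symbol, those whose levels ran most like the 2 probesets were ranked by Pearson's r over the 18 mice, taking the probeset of highest r for each of 14499 genes. For the a_at probeset these were the kinase Hipk2 (0.84), the transcription factor Klf7 (0.82), Xbp1 (0.81), the signal recognition particle subunit Srp72 (0.79), the chloride channel Clcn2 (0.79), Chid1 (0.78), the co-chaperone Dnajc3 of the endoplasmic reticulum (0.78) and Cep70 (0.78). For the s_at probeset they were the Fc receptor Fcgr4 (0.85), Xbp1 (0.84), Hipk2 (0.84), Stard5 (0.83), the heterochromatin protein Cbx5 (0.81), the amino acid transporter Slc7a7 (0.81), the syntaxin Stx18 (0.80) and Aldh7a1 (0.80). The lists of 8 share Hipk2 and Xbp1, 2 of 8 of each. As both probesets separate the DRAI+ mice, a high r can come from that separation alone. Within the 6 DRAI+ mice Xbp1 had r of 0.93 and 0.88, and within the other 12 mice 0.50 and 0.72, for its probeset of highest r with each. Over the 5 DRAI+ mice without CCAT2-GT replicate 2 the values were 0.58 and 0.34. Hipk2 has 7 probesets, whose r with the a_at probeset ran from -0.34 to 0.84, so its place rests on some of its probesets.

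Xbp1 was the plasma cell gene outside the 6 that ran most like both probesets. Its 4 probesets had r of 0.63 to 0.81 with the a_at probeset and 0.50 to 0.84 with the s_at probeset. Within the 12 mice that were not DRAI+ these ran from 0.14 to 0.50 and from -0.31 to 0.72. Over the 5 DRAI+ mice without CCAT2-GT replicate 2 the dimmest Xbp1 probeset had r of -0.84 and -0.72, while the others were above 0. The Xbp1 probeset most like the s_at probeset was at 10.21, 10.89, 10.36, 10.54, 10.33 and 10.49 in CCAT2-GT replicates 1 to 6, at 9.71, 10.03, 10.70 and 10.11 in CCAT2-G replicates 1 to 4, at 9.27, 9.66, 9.54 and 10.17 in CCAT2-T replicates 1 to 4 and at 9.77, 9.90, 9.99 and 10.17 in WT replicates 1 to 4. All DRAI+ mice were above all others except CCAT2-G replicate 3, in a probeset picked by its likeness. In the brightest Xbp1 probeset the lowest DRAI+ mouse was at 10.28. CCAT2-G replicates 3 and 4 (10.43 and 10.35) and CCAT2-T replicate 3 (10.36) lay above it. The brightest Xbp1 probeset differed by 0.44 (SE 0.14, limma adjusted p = 0.446) between DRAI+ and DRAI- mice, and by 0.21 (SE 0.13) without the 5 narrow arrays.

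The plasma score itself ran most like Dennd6a (0.78), Trpm1 (0.76), Per3 (0.74), Cxcr6 (0.73), Stau1 (0.71), Dst (0.71), Rnf157 (0.71) and Socs2 (0.68), and shares 0 genes with the 8 of either probeset. The gene most like Jchain, looked up after values had been seen, was Igha, the constant region of the IgA heavy chain, at 0.77 over 18 mice. Within the 12 mice that were not DRAI+ its 3 probesets had r of 0.95 to 0.97 with Jchain. Within the 6 DRAI+ mice they had r of 0.56 to 0.57 with Jchain. Over the 5 DRAI+ mice without CCAT2-GT replicate 2 these values were -0.001, -0.09 and 0.002. The brightest Igha probeset was at 13.02, 11.02, 12.78, 13.15, 13.25 and 13.17 in CCAT2-GT replicates 1 to 6, so that replicate 2, the highest mouse of both unnamed probesets, was the lowest of all 18 in Igha. CCAT2-G mice ranged from 11.69 to 13.07, CCAT2-T mice from 11.72 to 13.45 and WT mice from 13.02 to 13.33. Within the 6 DRAI+ mice the 3 Igha probesets had r of -0.92 to -0.90 with the a_at probeset, and over the 5 without replicate 2 r was 0.39, 0.27 and 0.09, so the negative sign rests on that mouse. In the same CCAT2-GT replicate 2 the IgG3 heavy chain gene Ighg3, also looked up after values had been seen, was at 10.19, the highest of all mice. The IgM heavy chain gene Ighm, looked up in the same way, had 10 probesets with r of -0.27 to 0.59 with the a_at probeset.

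Of 24 other plasma cell genes listed for comparison, 23 were measured, and 0 passed in any of the 4 comparisons by limma. DRAI+ minus WT, 15 were higher and 8 lower with a median of 0.19, and 5 were higher at an unadjusted p under 0.05, where 2.42% of all probesets passed. DRAI+ minus DRAI-, 15 were higher and 8 lower with a median of 0.15, and 5 were higher and 3 lower at an unadjusted p under 0.05, where 9.8% of all passed. Without the 5 narrow arrays, an alternative added after seeing the data, the medians were 0.17 for DRAI+ minus WT and 0.00211 for DRAI+ minus DRAI-. In each, 1 gene had an unadjusted p under 0.05, where 6.32% and 5.46% of all probesets did. With all arrays, 50.3% and 49.4% of all probesets tested were higher. The largest differences between DRAI+ and DRAI- mice were those of Pou2af1, a B-cell coactivator, at -0.91 (SE 0.38), Irf4, a transcription factor of B and plasma cells, at -0.65 (SE 0.29), and Edem1, a lectin that takes part in the disposal of misfolded glycoproteins, at 0.60 (SE 0.17). Between DRAI+ and WT mice they were those of Irf4 at -0.68 (SE 0.35; -0.17 without the narrow arrays), Pou2af1 at -0.61 (SE 0.45; 0.26 without them) and Sdf2l1, a chaperone component of the endoplasmic reticulum, at 0.61 (SE 0.25).

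Markers of other cell types moved with some members. The mature B-cell list, whose mean level was 5.56 to 7.13 in DRAI+ mice, 6.08 to 8.40 in DRAI- mice and 6.17 to 8.21 in WT mice, was lower in DRAI+ than in DRAI- mice for 11 of 11 measured genes (median -1.22). By limma 0 of the 11 passed, and 11 had an unadjusted p under 0.05, against 9.8% of all probesets. The mature B-cell score was 7.89 to 8.40 on the 5 narrow arrays, none of them DRAI+. Without those arrays 11 of 11 were lower between DRAI+ and DRAI- mice (median -0.89). Of these 5 had an unadjusted p under 0.05, against 5.46% of all probesets in that fit. Between DRAI+ and WT mice the median was -0.91 with them and -0.12 without them. The members of largest difference were Cd79a at -2.32 (SE 0.65), Ms4a1 (CD20) at -1.90 (SE 0.55) and Cd79b at -1.44 (SE 0.43). Of 8 B-cell precursor genes 7 were lower, 0 passed and 6 had an unadjusted p under 0.05. That count was 0 of 8 without the narrow arrays (5.46% of all probesets). It was 1 of 8 without CCAT2-GT replicate 2 (8.07% of all) and 1 of 8 without the 3 stroma-rich arrays (4.54%). The largest differences were those of Rag1 at -2.30 (SE 0.90), Ebf1 at -1.51 (SE 0.56) and Vpreb1 at -1.46 (SE 0.74). No defining marker of either list was near the low end of the array in all mice: Ms4a1 ranged from 5.60 to 8.55 in DRAI+ mice and from 7.33 to 10.22 in the other 12. In the other direction, 7 of 7 measured monocyte and macrophage genes were higher in DRAI+ than in DRAI- mice (median 0.53). Without the 3 stroma-rich arrays 4 of the 7 were higher and 3 lower (median 0.33). By limma 0 of the 7 passed, and 3 had an unadjusted p under 0.05, against 9.8% of all probesets. Without the narrow arrays 0 of 7 did, against 5.46% of all.

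Mzb1 ran with the mature B-cell score at r = 0.91 (rho 0.92) over 18 mice, at 0.86 within the 6 DRAI+ mice and at 0.88 among the 13 wider arrays. Its r was 0.70 with the plasmacytoid dendritic cell score and 0.80 with the T and NK cell score. Both probesets without a symbol ran against the mature B-cell score, at -0.75 for the a_at probeset and -0.68 for the s_at probeset, at -0.72 and -0.73 within the DRAI+ mice and at -0.53 and -0.29 within the other 12. Prdm1 did too, at -0.66, at -0.37 within the DRAI+ mice and at -0.56 within the other 12. Over the DRAI+ mice without CCAT2-GT replicate 2 the r of Prdm1 was 0.32. The brightest Sdc1 probeset had r of 0.58 with the monocyte and macrophage score, which ranged from 7.26 to 9.50 in DRAI+ mice, from 7.36 to 8.20 in DRAI- mice and from 7.16 to 8.72 in WT mice. Jchain, Derl3 and Tnfrsf17 had r of 0.24, -0.24 and 0.32 with the mature B-cell score. The same Sdc1 probeset had r of -0.56 with the mature B-cell score and 0.58 with a germinal centre and activated B-cell score. The part of these cell types in the members' values was not tested.

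**Figure D4:**
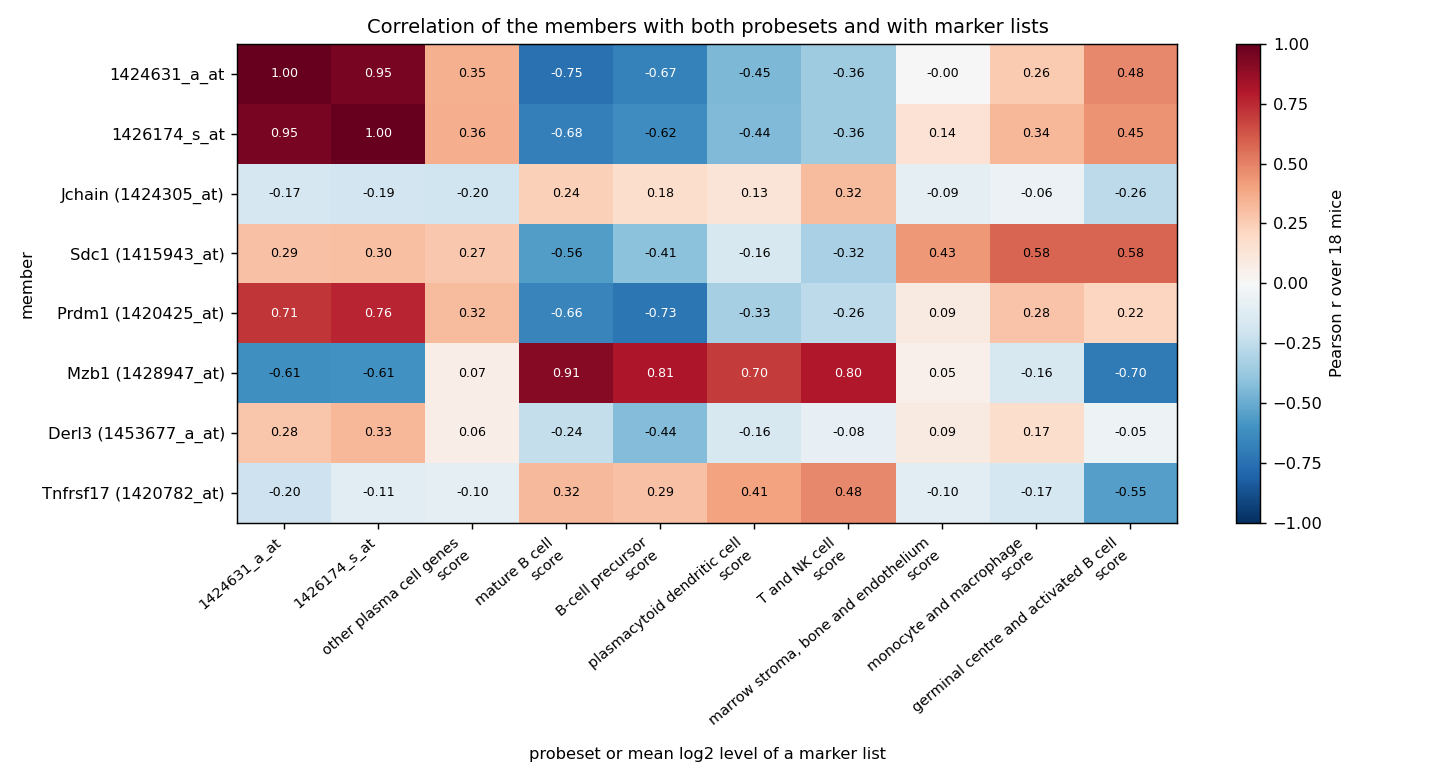
Pearson's r over 18 mice (colour and number) of both probesets without a symbol and the brightest probeset of each plasma cell gene (rows) with both probesets and with the mean level of 8 marker lists (columns). Mzb1 is at 0.91 with the mature B-cell score, and both probesets are at -0.75 and -0.68 with it.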

How the data were processed

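The authors deposited log2 values of 45101 probesets for the marrow of 18 mice, which they normalized with RMA, per the submitters' processing notes. Which version of RMA and which probe definitions were used is not given in the sources used here. Deposited values lie between 1.56 and 14.2, from which their log2 scale was taken. Precision is limited by the number of arrays. In the platform annotation 34958 probesets have a single symbol, 932 have several and 9211 have none listed. Those with a mean below the 30th percentile (3.30) were left out, which kept 31571.

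Group differences came from limma 3.58.1 under R 4.3.3, with lmFit and a trended eBayes over the 18 arrays, using 3 groups (DRAI+, DRAI-, WT), or 4 for the alleles, Benjamini-Hochberg adjustment over all probesets and a threshold of 0.05. The procedure was tested on simulated data. Correlations were computed with numpy 2.4.6 and scipy 1.17.1. The genes named by rule are all members, the 8 genes most like each probeset and the score, the 3 list members of largest difference and Xist. Crabp2 and Dnajc7 are named as the next by p. Igha, Ighg3 and Ighm were picked after values had been seen. Members, lists and rules were chosen with earlier results of these data known. The labels call the samples biological replicates. Same-numbered mice of different groups deviated together in some pairs and not in others (24 pairs, correlation -0.30 to 0.65, median 0.11, over 0.1 in 12). The labels give no pairing, so the numbers were not used as pairs in the main fit. Alternatives covered the filter, centring, the variance model, array weights, the replicate block, sets of arrays and each mouse left out.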

Additional observations from a re-analysis of the deposited data

Results flagged for a closer look

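Of 48 groups of values checked for a sample far from the others, 3 held one, where chance gives about 1 in 20. Mzb1 was at 7.56 in CCAT2-G replicate 3 and at 8.81 to 9.04 in the other 3 CCAT2-G mice, and that mouse also had the lowest mature B-cell score of its group, at 6.08. The a_at probeset was at 12.9 in CCAT2-GT replicate 2 and at 10.2 to 11.0 in the other 5 CCAT2-GT mice. The s_at probeset was at 12.3 in the same mouse and at 9.49 to 10.2 in the other 5. The causes were not tested.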

How the results depend on the processing

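Between DRAI+ and DRAI- mice 2 probesets passed, the a_at probeset and the s_at probeset. The count was 0 when only the compared groups were fitted (smallest adjusted p = 0.0563), 0 with the replicate block (smallest adjusted p = 0.0508), 0 without the 5 narrow arrays (0.875) and 0 without the 3 stroma-rich arrays (0.138). Leaving out each mouse in turn gave 2 to 121, with the 121 without CCAT2-G replicate 3. Both probesets were among those called each time, but the same contrast on these arrays chose them, so nothing is read from that. Between DRAI+ and WT mice 0 passed, and 492 with array weights. The causes were not tested. Fits without sets of arrays differ from the main fit both in the number of arrays and in which mice they hold. Over 32 alternatives the DRAI+ minus DRAI- difference ran from 2.00 to 2.57 for the a_at probeset and from 2.42 to 3.00 for the s_at probeset. That of Prdm1 ran from 0.22 to 0.49 over 31 (adjusted p from 0.0905 to 0.900) and that of Mzb1 from -0.75 to -0.42 over 32 (adjusted p from 0.0767 to 0.900). The difference of the plasma score between DRAI+ and DRAI- mice ran from -0.08 to 0.09, and the correlation of the score with the 2 probesets from -0.22 to 0.06 and from -0.18 to 0.10, so the sign of these small values is not fixed. The replicate block changed no other call. The counts of the gene lists without sets of arrays were added after seeing the data. Members near or below the array medians (Prdm1, Tnfrsf17, 3 Sdc1 probesets) carry little signal over background.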
